A study of Mus musculus with 24 samples.

Results

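The heavy chain variable segments (Ighv genes) of the immunoglobulin locus were examined as a repertoire, by how the reads on them were divided among segments in B cells of tumours and lymph nodes. The segments described were chosen by their read counts: of the 183 rows of the count table whose gene name starts with Ighv, the 101 with at least 100 reads summed over all 24 libraries were kept, out of 56791 genes in all. These 101 segments held 99.4% of all Ighv reads, and of the other 82 rows 25 had 0 reads. The segment with the fewest reads inside the floor was Ighv8-2 with 104 reads, and the row with the most reads outside it was Ighv3-4 with 94. Among the 101 the reads per segment lay between 104 and 12197 (median 1652), and 97 had a read in each of the 12 B cell libraries. Because the floor was set on the sum over all groups, 10 segments would have fallen below it without the group in which they had the most reads.

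B cells and regulatory T cells (Tregs, suppressive T cells defined by the factor Foxp3) were sorted from the tumour or its draining lymph nodes, in mice with a B16-F0 graft, a pigmented mouse melanoma line, and their RNA was sequenced in bulk. Tumour B cells of Foxp3-Cre Appl2 f/f mice (labelled KO) and of Foxp3-Cre mice (labelled WT), and lymph node B cells of both, made 4 groups, and the Tregs of the same tissues and labels made 4 more, with 3 libraries in each of the 8 groups. All mice carried the Foxp3-Cre allele and all carried the tumour, so no group is free of either, and no label gives the age of the mice. Cre recombinase driven by Foxp3 acts in Tregs, so a B cell of a KO mouse is not itself the cell type in which Appl2, an endosomal adaptor gene, was meant to be removed. Summed Appl2 reads over the whole gene, at 10.7 to 15.8 CPM (reads per 1e6 reads) in libraries labelled KO and 42.5 to 57.2 CPM in those labelled WT, nevertheless did not overlap between labels in B cells of the tumour. In those of lymph nodes they were 10.4 to 11.2 CPM under KO and 21.2 to 26.2 CPM under WT, in tumour Tregs 20.5 to 26.5 CPM under KO and 53.7 to 62.0 CPM under WT, and in lymph node Tregs 23.1 to 28.6 CPM under KO and 19.6 to 27.3 CPM under WT, which overlap and do not follow the label.

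An antibody heavy chain is encoded by a variable exon that each developing B cell assembles once, by joining 1 variable, 1 diversity and 1 joining segment, and that is spliced to the exons of a constant gene which sets the antibody class. A B cell therefore transcribes mainly the variable segment it chose, and its descendants keep that choice, so the division of Ighv reads among segments reflects which clones are present and how much antibody RNA each makes. Plasma cells hold far more antibody RNA than resting B cells, so in bulk samples more cells with a segment and more RNA per cell cannot be told apart. Usage below means the share of a library's Ighv reads that fell on 1 segment, in percent, and level means a segment's reads relative to the whole library. The usage shares of a library have a fixed sum, so a larger share of some segments means a smaller share of others. Nothing in the labels tells whether replicate libraries stem from different mice or from 1 pool, so every p-value below measures the spread between these libraries, which may be technical.

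The 12 B cell libraries expressed all 10 B cell markers checked (Ms4a1, Cd79a and others, summing to 4028 to 5811 CPM), against 4.31 to 308 CPM in the Treg libraries. Total depth was between 6245822 and 16239055 reads per library, of which Ighv reads numbered 10229 to 33725 in B cell libraries. Earlier work on these data found KO replicate 1 and WT replicate 2 of the tumour B cells to stand apart from their groups, and the counts of segments that passed were also made without them. Melanoma marker reads differed strongly between the tumour B cell groups, at 31.5 to 35.2 CPM over 5 genes in libraries labelled KO and 747 to 844 CPM in those labelled WT. T cell markers ran the other way, at 113 to 127 CPM over 8 genes under KO and 19.4 to 22.3 CPM under WT. Usage is a share within Ighv reads, so RNA without Ighv transcripts changes the level of a segment but not its usage. The part of other cells' RNA in the results was not tested.

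Germline sequences of 7 leading segments are shown because the groups below differ in which of them carried most reads, and because reads can be assigned to a segment only where the segments differ. Each is the last 294 bases of the coding part of the GENCODE vM21 (GRCm38) transcript of that symbol, 5′ to 3′. The coding bases before these, the whole leader exon among them, are left out. Ighv11-2 has 353 coding bases, against 351 in the others, so its printed part starts within a codon. In the first 5, all of family 1, capitals mark the 55 positions at which the 5 sequences are not all alike. In Ighv9-3 and Ighv11-2, capitals mark the tyrosine, phenylalanine and cysteine codons near the 3′ end, where the conserved cysteine precedes the junction with the diversity segment.
Ighv1-53: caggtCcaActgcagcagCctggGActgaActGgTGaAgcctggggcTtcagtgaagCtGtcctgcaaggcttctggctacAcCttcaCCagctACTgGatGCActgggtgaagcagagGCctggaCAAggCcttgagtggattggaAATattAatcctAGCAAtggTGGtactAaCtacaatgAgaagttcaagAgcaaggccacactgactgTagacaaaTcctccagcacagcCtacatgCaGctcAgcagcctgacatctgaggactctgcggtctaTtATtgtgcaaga
Ighv1-64: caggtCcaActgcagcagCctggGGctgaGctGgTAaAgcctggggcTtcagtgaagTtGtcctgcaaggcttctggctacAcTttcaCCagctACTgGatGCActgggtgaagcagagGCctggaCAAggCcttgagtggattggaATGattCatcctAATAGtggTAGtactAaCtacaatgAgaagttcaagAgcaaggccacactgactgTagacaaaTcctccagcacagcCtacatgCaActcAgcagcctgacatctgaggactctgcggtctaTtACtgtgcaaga
Ighv1-72: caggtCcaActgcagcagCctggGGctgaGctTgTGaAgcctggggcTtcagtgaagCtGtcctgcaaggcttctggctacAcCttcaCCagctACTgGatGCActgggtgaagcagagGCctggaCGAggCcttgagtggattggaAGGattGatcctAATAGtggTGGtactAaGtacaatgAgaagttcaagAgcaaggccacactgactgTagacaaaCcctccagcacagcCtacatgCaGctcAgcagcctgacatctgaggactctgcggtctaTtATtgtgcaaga
Ighv1-81: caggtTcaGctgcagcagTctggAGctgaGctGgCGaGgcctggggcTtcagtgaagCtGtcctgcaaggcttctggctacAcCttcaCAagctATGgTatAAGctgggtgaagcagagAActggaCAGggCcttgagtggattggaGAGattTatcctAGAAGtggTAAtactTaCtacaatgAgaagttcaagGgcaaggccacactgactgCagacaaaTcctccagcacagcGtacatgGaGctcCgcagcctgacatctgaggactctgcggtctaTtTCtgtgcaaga
Ighv1-82: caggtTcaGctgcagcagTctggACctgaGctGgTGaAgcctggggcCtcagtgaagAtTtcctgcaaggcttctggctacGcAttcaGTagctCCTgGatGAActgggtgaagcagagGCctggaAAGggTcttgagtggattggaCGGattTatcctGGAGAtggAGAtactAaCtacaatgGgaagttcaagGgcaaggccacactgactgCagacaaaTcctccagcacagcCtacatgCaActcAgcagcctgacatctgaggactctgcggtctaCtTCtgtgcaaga
Ighv9-3: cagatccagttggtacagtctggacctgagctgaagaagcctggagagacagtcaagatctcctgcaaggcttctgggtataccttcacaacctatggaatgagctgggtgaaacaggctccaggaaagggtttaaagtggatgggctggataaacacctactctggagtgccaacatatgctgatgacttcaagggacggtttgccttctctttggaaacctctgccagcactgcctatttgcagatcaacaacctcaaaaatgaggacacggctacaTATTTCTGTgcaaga
Ighv11-2: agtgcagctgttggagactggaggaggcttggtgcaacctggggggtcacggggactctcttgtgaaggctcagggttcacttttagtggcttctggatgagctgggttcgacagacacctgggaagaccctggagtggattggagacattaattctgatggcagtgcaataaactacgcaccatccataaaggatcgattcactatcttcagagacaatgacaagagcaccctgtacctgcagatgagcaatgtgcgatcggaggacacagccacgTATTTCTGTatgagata

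The 5 segments of family 1 shared 87.4 to 95.9% of these bases with each other, with Ighv1-53, Ighv1-64 and Ighv1-72 the closest, at 12 to 14 differing positions per pair. Ighv9-3 and Ighv11-2 shared 59.5 to 68.4% with the others printed and with each other. Over the 91 segments with a coding sequence in that annotation, the median identity to the nearest other segment was 95.6%, and 51 were over 95% identical to another. Ighv1-72 was 99.3% identical to Ighv1-62-3, Ighv11-2 98.6% to Ighv11-1, and Ighv1-62-2 and Ighv1-71 were identical over the bases compared. Antibody genes also mutate in germinal centres, and the handling of reads that align to several segments is stated nowhere in the sources at hand, so reads of such close pairs are uncertain between the partners.

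The amount of Ighv RNA was larger in tumour than in lymph node B cells. It made up 0.208, 0.212 and 0.214% of all gene reads in tumour B cell libraries labelled KO, against 0.372, 0.321 and 0.363% in those labelled WT. In lymph node B cells it made up 0.0875, 0.0855 and 0.0839% under KO, against 0.112, 0.102 and 0.103% under WT. No library of any of the 4 groups lay within the range of another group, and the share was lower under KO than under WT in both tissues. The difference between labels was -0.141 percentage points in tumours and -0.0200 points in lymph nodes, and that between tumour and lymph node was 0.126 points under KO and 0.246 points under WT. Per 100 reads of the 10 B cell markers, there were 46.6 to 51.6 Ighv reads under KO and 70.1 to 84.3 under WT in tumours, and 15.1 to 15.4 under KO and 17.5 to 19.8 under WT in lymph nodes.

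Diversity was measured as the effective number of segments, the exponential of the Shannon entropy. It is the number of equally used segments that would give the same entropy. Tumour B cells had an effective number of 56.8, 55.0 and 56.4 segments in libraries labelled KO, against 56.5, 56.4 and 55.4 in those labelled WT. These 2 groups overlapped, at 56.1 ± 0.912 and 56.1 ± 0.584 (SD, n = 3 each). Lymph node B cells had 65.7, 63.2 and 64.2 under KO, against 61.9, 62.1 and 62.9 under WT, so that the KO libraries were all higher, by 2.09 on average. Each tumour library had a lower effective number than every lymph node library. The mean difference, tumour minus lymph node, was -8.30 segments under KO and -6.20 under WT. The inverse Simpson index, which weights the commonest segments more, was 36.7 to 39.3 in tumour libraries of either label, against 46.9 to 49.1 in lymph node KO and 41.6 to 43.6 in lymph node WT libraries. The commonest 14 segments held at least 50% of the Ighv reads in every tumour B cell library, while 18 or 19 were needed in lymph node KO and 16 in lymph node WT libraries. No library was dominated by 1 segment, since the largest share of any segment in a B cell library was 8.39%, of Ighv1-64 in a tumour KO library.

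**Figure D1:**
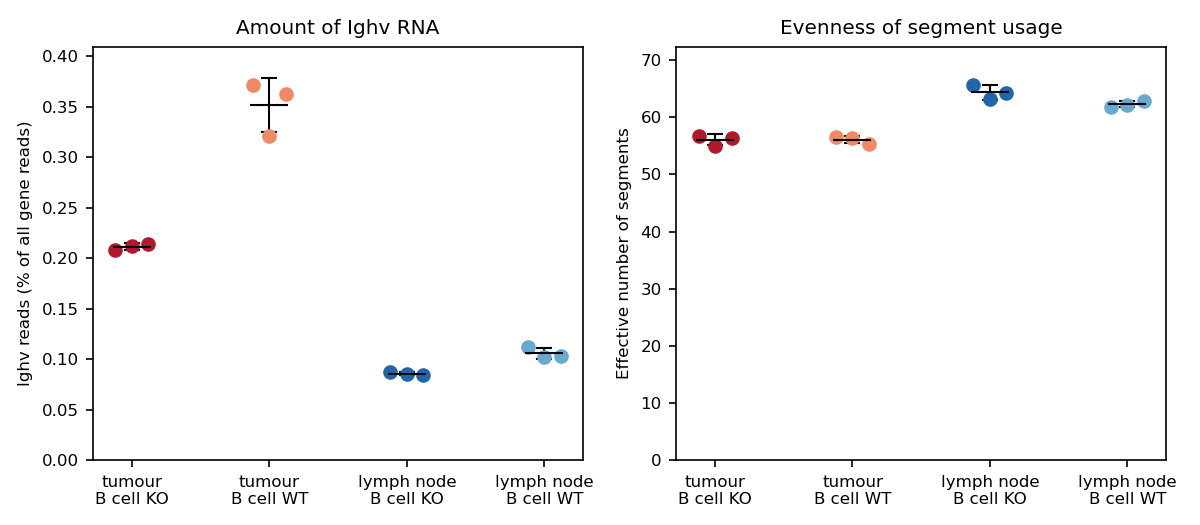
Ighv reads as a percentage of all gene reads (left) and effective number of Ighv segments (right) in the 12 B cell libraries, one point per library, with the mean and SD of 3 as bars. The 4 groups are separate in amount, and tumour libraries lie between 55.0 and 56.8 effective segments against 61.9 to 65.7 in lymph node libraries.

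The leading segments differed between all 4 groups and were shared by the libraries within each. Since the labels do not tell whether these libraries stem from different mice, the sharing need not be one between mice. In tumour B cells labelled KO, Ighv1-64 came first in all 3 libraries, with 7.13, 8.39 and 6.85% of Ighv reads, followed by Ighv1-53 (5.003 ± 0.455%, SD, n = 3) and Ighv1-72 (4.90 ± 0.415%), the germline segment known from the antibody response to the hapten NP in C57BL/6 mice. Ighv11-2, known in mice as a segment of B-1 cells that bind phosphatidylcholine, came next with 4.04 ± 0.233%, and Ighv4-1 followed with 3.96 ± 0.293%. In tumour B cells labelled WT, Ighv1-82 (5.71, 5.86 and 5.54%) and Ighv1-81 (5.71, 5.52 and 5.48%) led and did not differ beyond their spread, followed by Ighv1-72 (5.23 ± 0.0673%), Ighv1-9 (5.08 ± 0.139%) and Ighv1-53 (3.84 ± 0.0894%). In lymph node B cells labelled KO, Ighv1-53 led every library with 5.70, 5.76 and 6.01%, followed by Ighv2-9 (3.94 ± 0.358%) and Ighv1-64 (3.742 ± 0.2301%), which did not differ beyond their spread, and by Ighv9-3 (3.08 ± 0.262%) and Ighv2-2 (2.99 ± 0.137%). In lymph node B cells labelled WT, Ighv9-3 led with 6.80, 7.65 and 6.72% and Ighv2-2 followed with 5.71 ± 0.135%. Ighv1-12 (3.59 ± 0.235%), Ighv1-64 (3.58 ± 0.243%) and Ighv5-17 (3.34 ± 0.215%) came next there and were within each other's spread.

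**Figure D2:**
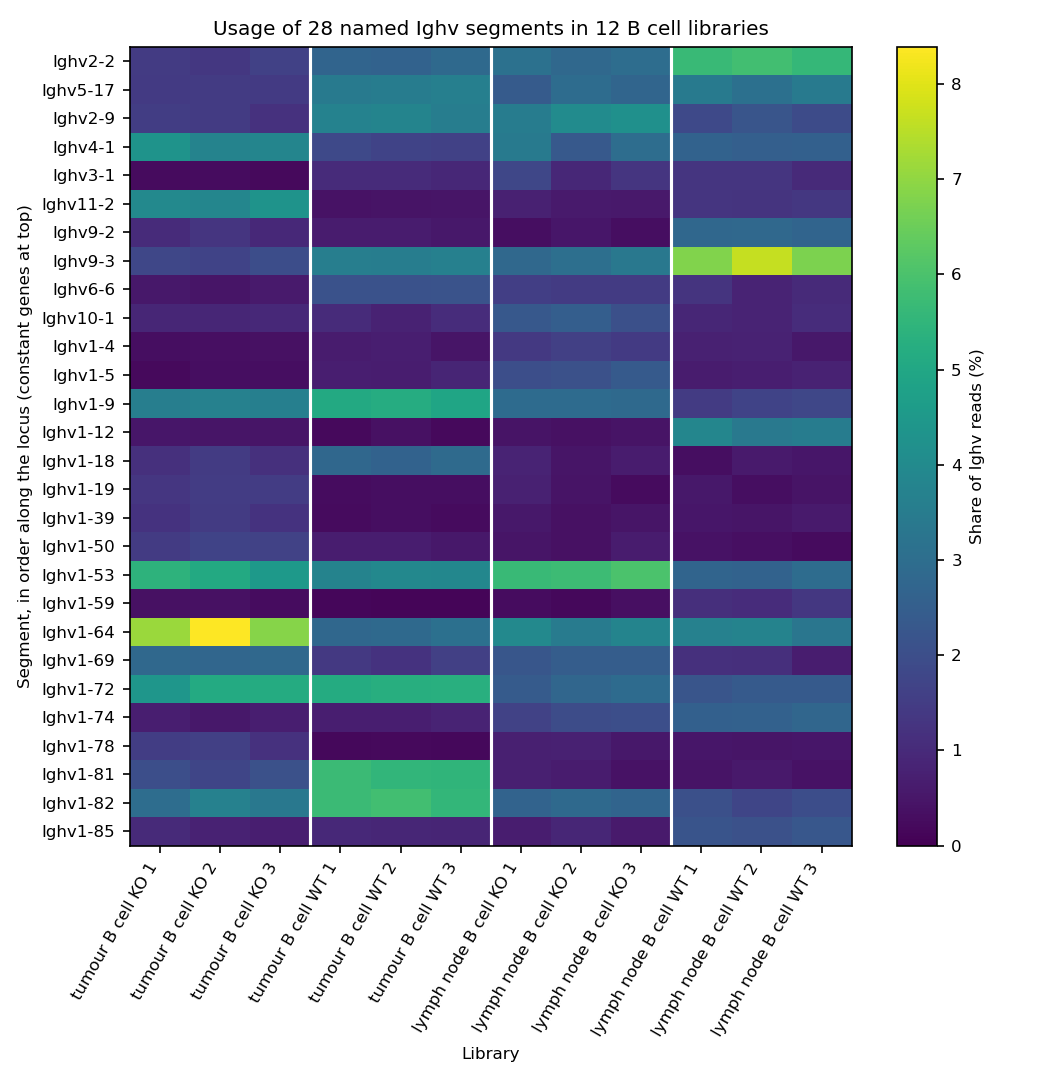
Share of Ighv reads (colour, in percent) of 28 named segments, ordered along the locus with those nearest the constant genes at the top, in the 12 B cell libraries. Libraries of 1 group show the same pattern, and the brightest cells are Ighv1-64 in tumour KO, Ighv1-81 and Ighv1-82 in tumour WT, Ighv1-53 in lymph node KO and Ighv9-3 in lymph node WT.

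The likeness of whole usage profiles was described by the Morisita-Horn index, which is 1 for identical shares and 0 for profiles with no segment in common. It was 0.985 to 0.998 over the 12 pairs of B cell libraries within a group and 0.675 to 0.859 over the 54 pairs of libraries from different B cell groups, so the ranges did not meet. Of the 10 commonest segments of a library, 7 to 10 were shared within a group and 2 to 8 between groups. All 24 libraries, Tregs included, were most like both other libraries of their own group. Libraries made from 1 pool would be alike too, and the labels do not say whether that was so. The chi-square per degree of freedom between Ighv counts of 2 libraries was 2.17 to 3.97 within B cell groups and 19.2 to 66.7 between them. Of the Ighv counts between 1 and 10, 58.3% were even numbers, so a count need not be 1 independent molecule. Part of a chi-square per degree of freedom above 1 within a group can therefore be counting error. How large that part is was not tested. Between groups, tumour WT and lymph node KO libraries were the most alike (median 0.849) and tumour KO and lymph node WT libraries the least (0.695). Tumour KO and tumour WT libraries, which share a tissue, had a median of 0.796, and lymph node KO and lymph node WT libraries had one of 0.826.

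**Figure D3:**
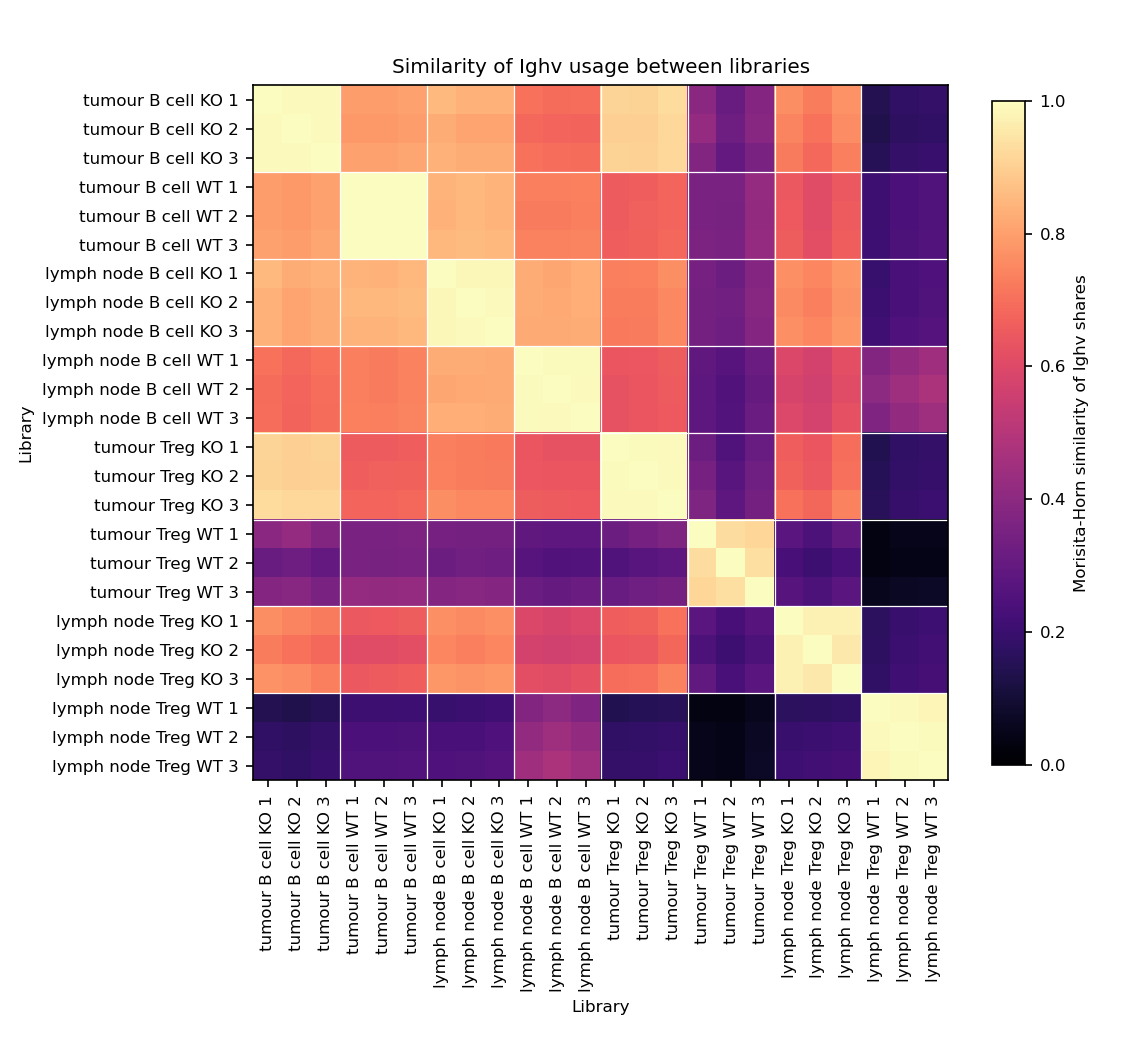
Morisita-Horn similarity of Ighv shares (colour, 0 to 1) between all pairs of the 24 libraries, grouped by cell type, tissue and genotype label. Blocks of 3 on the diagonal stand at 0.914 or above, and off the diagonal the tumour KO B cells and tumour KO Tregs reach 0.899 to 0.927.

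Tumour B cells labelled KO and WT were compared first for the level of each segment and then for usage. Each comparison was an edgeR quasi-likelihood test fitted on the whole table, called at a Benjamini-Hochberg adjusted p under 0.05 over all genes, in which 99 of the 101 segments passed the filter on low counts. In level, 71 of these 99 passed, 19 higher and 52 lower under KO, beside 40.1% of all genes tested that passed, 21.3% higher and 18.8% lower. The median level change of the segments was -0.68 on the log2 scale, beside -0.03 for all genes. In usage, which is freed from that shared shift, 66 of 99 passed, 29 higher and 37 lower, beside 40.1% of all genes, 21.4% higher and 18.7% lower. Because usage shares have a fixed sum, higher and lower usage calls depend on each other. Genes other than Ighv rows are not scaled in this way. Usage ranges of the 2 groups did not overlap for 30 segments that were higher and 39 that were lower under KO, and overlapped for 32, beside 51.2% of all genes tested whose ranges did not overlap, 25.9% higher and 25.2% lower.

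Among segments with at least 1% of Ighv reads in either group, the largest rise in usage in tumour B cells was that of Ighv11-2 (chromosome 12, 114011861 to 114012432 of GRCm39, minus strand), the segment of family 11 printed above. It took 3.96, 3.86 and 4.30% of Ighv reads in libraries labelled KO, against 0.394, 0.433 and 0.473% in those labelled WT, a log2 usage ratio of 3.22 ± 0.11 (SE; edgeR, adjusted p = 8.7e-11). The libraries of the labels were far apart, with no overlap. Ighv1-78 took 1.53, 1.60 and 1.21% under KO, against 0.193, 0.204 and 0.181% under WT, a ratio of 2.91 ± 0.17 (edgeR, adjusted p = 1.7e-08). Ighv1-39 and Ighv1-19 rose by 2.30 ± 0.17 and 2.25 ± 0.15, to 1.30 ± 0.134 and 1.44 ± 0.104% under KO (SD, n = 3), against 0.267 ± 0.0373 and 0.301 ± 0.0151% under WT. Of the leading segments, Ighv1-64 rose to 7.45 ± 0.820% under KO, against 2.92% on average under WT, a ratio of 1.35 ± 0.09 (edgeR, adjusted p = 6.7e-08). Ighv4-1 rose by 1.21 ± 0.09 and Ighv1-53 by 0.38 ± 0.08 (edgeR, adjusted p = 0.0026).

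The largest falls among the same segments were those of Ighv6-6, Ighv1-81, Ighv2-9 and Ighv5-17. Ighv6-6 took 0.539, 0.488 and 0.598% of Ighv reads under KO, against 2.11, 2.12 and 2.15% under WT, a log2 usage ratio of -1.97 ± 0.12 (edgeR, adjusted p = 1.7e-08). Ighv1-81 (chromosome 12, 115883899 to 115884332), joint leader under WT, took 2.03, 1.77 and 2.07% under KO, against 5.71, 5.52 and 5.48% under WT, a ratio of -1.51 ± 0.09 (edgeR, adjusted p = 1.2e-08). Its neighbour along the locus, Ighv1-82, fell by 0.77 on the log2 scale (SE 0.09). Ighv2-9 and Ighv5-17 had ratios of -1.39 ± 0.10 and -1.28 ± 0.09, and both were separate between the labels in every library. Ighv1-72, prominent in both groups, did not pass, with a ratio of -0.09 ± 0.08 (edgeR, adjusted p = 0.39). Its level fell by 0.58 (SE 0.10; edgeR, adjusted p = 0.00026), beside a total of Ighv reads that was lower under KO. Ighv1-53 likewise did not pass in level (-0.11 ± 0.08; edgeR, adjusted p = 0.32) beside its rise in usage.

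Lymph node B cells labelled KO and WT differed in fewer segments. In level, 32 of 95 segments tested passed, 12 higher and 20 lower under KO, beside 21.1% of all genes, 11% higher and 10.1% lower. Here the median level change of the segments was -0.05, beside -0.01 for all genes. In usage 39 of 95 passed, 21 higher and 18 lower, beside 21.2% of all genes, 11.1% higher and 10.1% lower. Usage ranges did not overlap for 28 segments that were higher and 21 that were lower under KO, and overlapped for 52, beside 35.2% of all genes without overlap, 17.6% in each direction.

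The change with the smallest adjusted p among the named segments was in Ighv1-12 (chromosome 12, 114579470 to 114579938), among the leaders under WT. It took 0.444, 0.381 and 0.431% of Ighv reads in lymph node B cells labelled KO, against 3.86, 3.40 and 3.52% in those labelled WT, a log2 usage ratio of -3.10 ± 0.14 (edgeR, adjusted p = 2.7e-16). Ighv9-2 took 0.315, 0.508 and 0.309% under KO, against 2.79, 2.83 and 2.71% under WT, a ratio of -2.88 ± 0.17 (edgeR, adjusted p = 5.5e-14). Both were apart in every library. Ighv1-59 and Ighv1-85, the segment farthest from the constant genes, fell by 2.10 (SE 0.22) and 1.61 (SE 0.15) on the log2 scale. Ighv9-3 (chromosome 12, 114104312 to 114104742), the leader under WT, fell to 3.08 ± 0.262% under KO, against 7.05 ± 0.517% under WT (-1.19 ± 0.09; edgeR, adjusted p = 1.1e-11). Ighv2-2, next to it under WT, fell by 0.94 (SE 0.09) to 2.99 ± 0.137%, against 5.71 ± 0.135%.

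Among segments that rose under KO in lymph nodes, Ighv1-5 took 2.02, 2.08 and 2.36% of Ighv reads in libraries labelled KO, against 0.628, 0.716 and 0.807% in those labelled WT, a log2 usage ratio of 1.59 ± 0.15 (edgeR, adjusted p = 2.6e-09). Ighv10-1 and Ighv1-69 rose by 1.29 ± 0.14 and 1.29 ± 0.16, to 2.29 ± 0.226 and 2.40 ± 0.138% under KO, against 0.937 ± 0.110 and 0.978 ± 0.275% under WT (SD, n = 3). Ighv1-53, the leader under KO, rose by 1.07 ± 0.09 to 5.82 ± 0.167%, against 2.77 ± 0.185% under WT (edgeR, adjusted p = 1.8e-10). Ighv2-9 rose by 0.98 ± 0.11, whereas it had fallen under KO in tumours. Ighv1-64 stood at 3.742 ± 0.2301% under KO and 3.58 ± 0.243% under WT, and did not pass (0.06 ± 0.09; edgeR, adjusted p = 0.71).

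The comparisons by genotype label in tumour and in lymph node B cells use different libraries. In usage 29 segments passed in both, which is 43.9% of the 66 that passed in tumours and 74.4% of the 39 that passed in lymph nodes. Over all genes, the calls shared in this way were 34% of those in tumours and 63.8% of those in lymph nodes. Of the 29, 5 were higher under KO in both tissues and 8 lower in both, while 6 were higher in tumours and lower in lymph nodes and 10 the reverse. This split by direction was not counted over all genes, so it cannot be read as particular to these segments. The difference between tissues was tested itself, as the interaction of genotype label with tissue in a fit of all 12 B cell libraries. It passed for 50 of 101 segments, 21 with a larger ratio in tumours and 29 with a smaller one, beside 20.9% of all genes tested, 12.4% larger and 8.5% smaller. For Ighv11-2 the ratio under KO was 3.22 ± 0.11 in tumours and -1.002 ± 0.17 in lymph nodes, a difference of 4.22 ± 0.18 (edgeR, adjusted p = 7.3e-13). For Ighv1-12 it was 0.84 ± 0.24 in tumours and -3.10 ± 0.14 in lymph nodes, a difference of 3.96 ± 0.26 (edgeR, adjusted p = 6.1e-10). For Ighv2-9 it was -1.39 ± 0.10 in tumours and 0.98 ± 0.11 in lymph nodes, a difference of -2.37 ± 0.15 (edgeR, adjusted p = 2.4e-10). Ighv9-3 and Ighv2-2, which fell in both tissues, had interactions of 0.21 ± 0.12 and 0.04 ± 0.13 that did not pass (edgeR, adjusted p = 0.26 and 0.85).

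**Figure D4:**
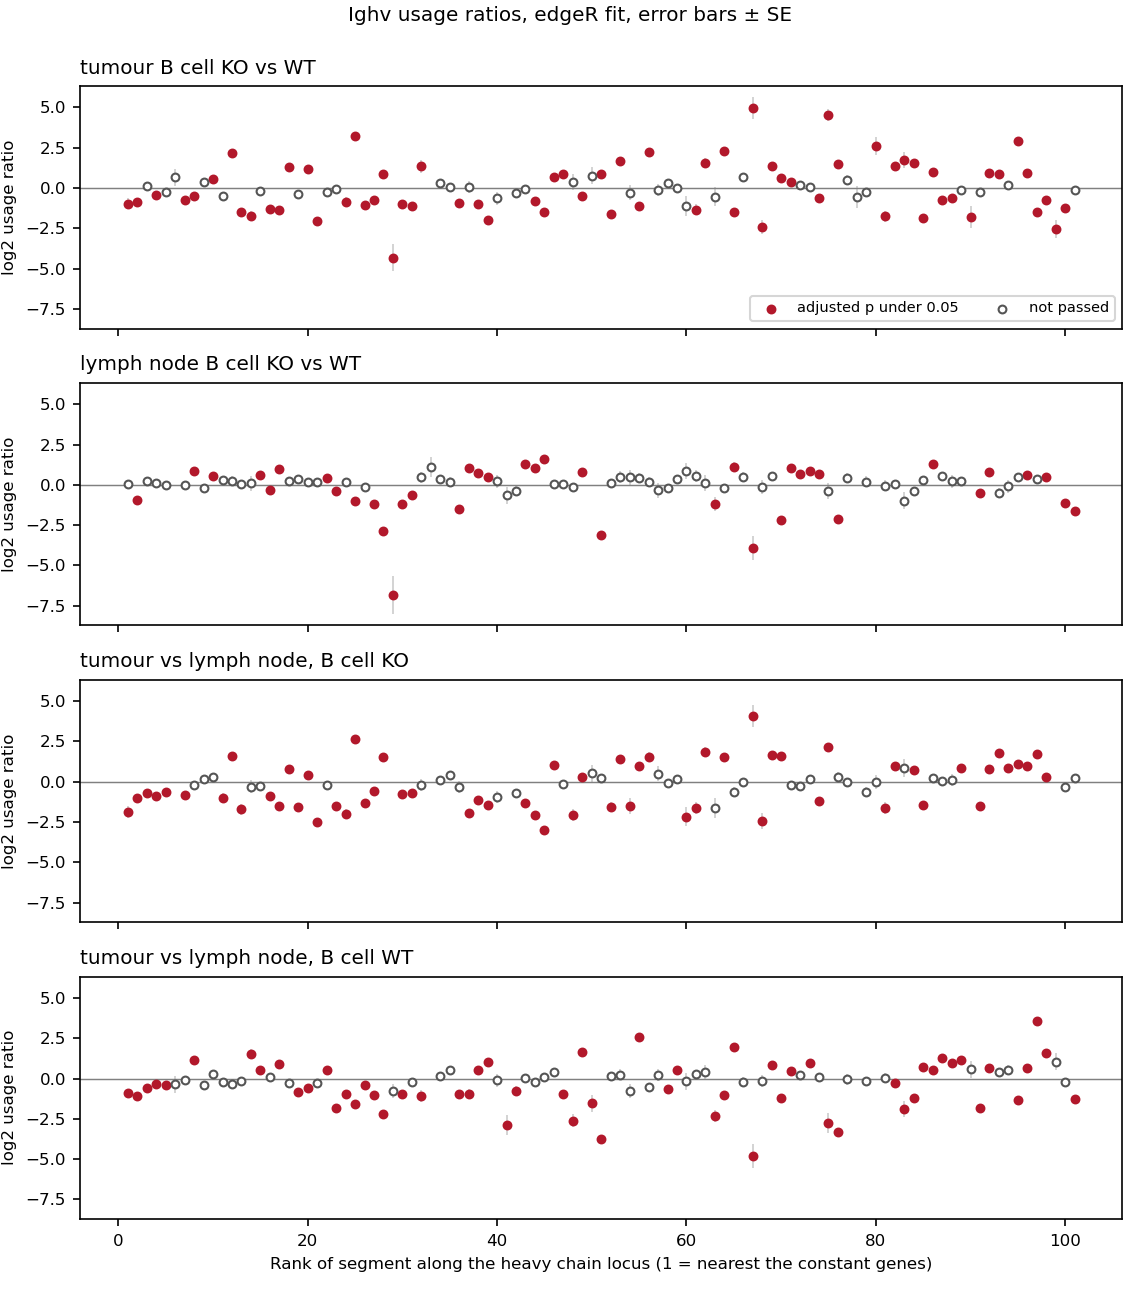
Log2 usage ratio of each tested segment (KO over WT, or tumour over lymph node, ± SE) against its rank along the heavy chain locus, in 4 comparisons of B cells; filled points passed at an adjusted p under 0.05. Filled points lie on both sides of 0 along the whole locus, and the segment at rank 25, Ighv11-2, is high in the tumour KO against WT and the KO tissue comparisons and low in the other 2. Ighv12-2 at rank 29 had 0 reads in lymph node KO libraries, so its point there depends on the fit's prior count and is no measured ratio.

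Tumour and lymph node B cells were then compared within each genotype label. Among libraries labelled KO, 67 of 94 segments passed in level, 64 higher and 3 lower in tumours, beside 30.9% of all genes, 17.5% higher and 13.4% lower. Among libraries labelled WT, 82 of 98 passed in level, 78 higher and 4 lower in tumours, beside 30.1% of all genes, 15.7% higher and 14.3% lower. The median level change of the segments was 1.24 under KO and 1.51 under WT, beside -0.02 and 0.01 for all genes. In usage, 60 of 94 passed under KO, 26 higher and 34 lower in tumours, beside 30.8% of all genes, 17.2% higher and 13.6% lower. Under WT 59 of 98 passed in usage, 23 higher and 36 lower, beside 29.9% of all genes, 15.3% higher and 14.6% lower. The usage ranges under KO did not overlap for 29 segments higher and 40 lower in tumours, beside 44.3% of all genes, 22.7% higher and 21.6% lower. Under WT they did not overlap for 26 higher and 37 lower, beside 42.6% of all genes, 21.4% higher and 21.2% lower. In usage 36 segments passed under both labels, 60% of the 60 under KO and 61.0% of the 59 under WT, of which 8 were higher in tumours under both, 14 lower under both and 14 opposite. Over all genes, 44.4% of the calls under KO and 45.1% of those under WT were shared in this way, and their split by direction was not counted.

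Among segments with at least 1% of Ighv reads in either tissue, the largest tumour rise under KO was again that of Ighv11-2, at 3.96, 3.86 and 4.30% of Ighv reads in tumour libraries, against 0.777, 0.606 and 0.571% in lymph node libraries (2.63 ± 0.12; edgeR, adjusted p = 6.9e-09). Under WT Ighv11-2 went the other way, with 0.394, 0.433 and 0.473% in tumours, against 1.29, 1.27 and 1.37% in lymph nodes (-1.59 ± 0.15; edgeR, adjusted p = 2.5e-07). The largest tumour rise under WT was that of Ighv1-81, at 5.71, 5.52 and 5.48% in tumours, against 0.429, 0.560 and 0.412% in lymph nodes (3.57 ± 0.10; edgeR, adjusted p = 6.1e-15). Ighv1-81 was higher in tumours under KO as well, by 1.71 ± 0.17. Other tumour rises under KO were those of Ighv1-50 (1.69 ± 0.17) and Ighv1-19 (1.55 ± 0.27), and under WT those of Ighv1-18 (2.55 ± 0.15), Ighv1-9 (1.63 ± 0.08) and Ighv1-82 (1.57 ± 0.08). Ighv1-72 was higher in tumours under both labels, by 0.86 ± 0.10 under KO and 1.17 ± 0.07 under WT.

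Among the same segments, falls in tumour usage under KO were largest for Ighv1-5, at 0.212, 0.303 and 0.317% of Ighv reads in tumours, against 2.02, 2.08 and 2.36% in lymph nodes (-2.97 ± 0.19; edgeR, adjusted p = 1.1e-07). Ighv3-1 and Ighv1-4 followed there, with -2.49 ± 0.25 and -2.07 ± 0.17. Under WT, Ighv1-12 took 0.219, 0.384 and 0.221% in tumours, against 3.86, 3.40 and 3.52% in lymph nodes (-3.76 ± 0.17; edgeR, adjusted p = 4.8e-12). Ighv1-59 and Ighv9-2 followed under WT, with -3.30 ± 0.21 and -2.20 ± 0.12. Ighv1-74 was lower in tumours under both labels, with ratios of -1.53 ± 0.16 under KO and -1.81 ± 0.12 under WT. Ighv9-3 and Ighv2-2 were also lower in tumours under both labels, with ratios of -0.76 ± 0.11 and -1.01 ± 0.11 under KO and of -0.97 ± 0.07 and -1.06 ± 0.07 under WT.

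Some rarer segments, chosen after their values were seen, showed larger contrasts on few reads. Ighv1-49 had 50, 49 and 42 reads in tumour libraries labelled KO, against 0, 0 and 6 in those labelled WT, and 0, 0 and 4 reads in lymph node KO libraries, against 15, 38 and 23 in lymph node WT libraries. Ighv1-58 had 110, 118 and 120 reads in tumour KO libraries, against 8, 2 and 11 in tumour WT libraries. Ighv12-2, annotated as a pseudogene, had 2, 0 and 0 reads in tumour KO libraries, against 22, 18 and 21 in tumour WT libraries, and 0 in all 3 lymph node KO libraries, against 10, 15 and 20 in lymph node WT libraries. Outside the group with their most reads, Ighv1-49 had 90 reads and Ighv12-2 had 55, under the floor of 100, so both were kept only through a group in which they were high.

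By family (the first number of a segment's name), the 101 segments covered 15 of the 16 families in the table, and family 1, the large J558 family, supplied 53. Family 1 held 61.3 ± 1.11% of Ighv reads in tumour KO and 54.5 ± 0.662% in tumour WT libraries, and 48.0 ± 0.556% in lymph node KO and 42.8 ± 0.389% in lymph node WT libraries (SD, n = 3 each). No library of 1 group fell within the range of another in this share, and tumour and KO libraries stood higher. Family 9, with 4 segments, held 4.40 ± 0.136% in tumour KO and 6.27 ± 0.0943% in tumour WT libraries, and 5.29 ± 0.262% in lymph node KO and 13.4 ± 0.712% in lymph node WT libraries. Family 5, the segments of which lie near the constant genes, held 5.82 ± 0.131% in tumour KO and 8.65 ± 0.184% in tumour WT libraries, and 9.11 ± 0.258% in lymph node KO and 9.14 ± 0.476% in lymph node WT libraries. In the tumour comparison by label, 20 family 1 segments (37.7%) were higher in usage and 15 (28.3%) lower under KO of 53 tested, and of 9 tested in family 5 0 were higher and 4 lower, beside 21.4% of all genes higher and 18.7% lower.

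By position, the segments run from Ighv5-2 to Ighv1-85 between 113542124 and 115964081 on the minus strand of chromosome 12 (GRCm39), with the constant genes beyond Ighv5-2. The 33 segments farthest from the constant genes held 48.5 ± 0.855% of Ighv reads in tumour KO and 41.8 ± 0.178% in tumour WT libraries, and 36.5 ± 1.05% in lymph node KO and 31.3 ± 0.538% in lymph node WT libraries. The 34 segments nearest the constant genes held 31.8 ± 0.917% in tumour KO and 35.5 ± 0.680% in tumour WT libraries, and 40.5 ± 0.998% in lymph node KO and 48.7 ± 0.151% in lymph node WT libraries. The order of the groups was thus reversed between the ends of the locus. The middle segments held 19.1% in tumour KO, 22.1% in tumour WT, 22.2% in lymph node KO and 19.1% in lymph node WT libraries. Since these shares are parts of 1 total, more at 1 end leaves less for the other, and the reversal is no separate observation. In usage, 14 far segments were higher and 10 lower under KO in tumours of 33 tested, against 7 higher and 16 lower of 33 tested on the constant side. The 7 are 21.2% of the 33, near the 21.4% of all genes that were higher, while 42.4% of the far segments were higher. Of the lower calls, the far segments had 30.3% and those on the constant side 48.5%, beside 18.7% of all genes.

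By annotation class, 91 of the 101 segments were functional variable genes and 10 pseudogenes in GENCODE vM21, whereas the 82 rows under the floor were 22 variable genes and 59 pseudogenes, with 1 row of another class. The pseudogenes with most reads were Ighv4-2 with 2186, Ighv3-2 with 821 and Ighv1-14 with 679 reads.

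The constant genes that share transcripts with these segments, and Jchain, were measured as a list of partners. In level, 4 of the 8 tested were higher and 3 lower under KO in tumour B cells, beside 21.3% of all genes higher and 18.8% lower. In lymph node B cells 3 of 9 were higher and 4 lower under KO, beside 11% of all genes higher and 10.1% lower. In tumour B cells Igha, which encodes the constant region of IgA, was at 175, 139 and 143 CPM in libraries labelled KO, against 831, 716 and 833 CPM in those labelled WT (-2.14 ± 0.09; edgeR, adjusted p = 6.7e-10). Jchain, the chain that joins IgA and IgM into polymers, was at 331, 278 and 253 CPM under KO, against 875, 671 and 872 CPM under WT (-1.25 ± 0.11; edgeR, adjusted p = 8.6e-07). Ighg2c, Ighg1, Ighg2b and Ighm were higher under KO there, by 0.70 ± 0.07, 0.72 ± 0.08, 0.39 ± 0.08 and 0.41 ± 0.08. Of the reads on constant genes in tumour B cells, Igha took 3.45 to 4.61% under KO and 18.2 to 19.8% under WT, while Ighg2c took 29.2 to 31.2% under KO and 20.5 to 21.2% under WT. In lymph node B cells Ighg1 was at 185, 170 and 177 CPM under KO, against 504, 484 and 509 CPM under WT (-1.45 ± 0.05; edgeR, adjusted p = 2.4e-19), and took 7.92 to 8.15% of constant reads, against 19.4 to 20.2%. Igha was higher under KO in lymph nodes, at 31.6 to 39.8 CPM, against 7.13 to 9.06 CPM (2.12 ± 0.13; edgeR, adjusted p = 3.4e-13), so that its difference by label had opposite signs in the 2 tissues.

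The switched constant genes did not all move one way between the tissues. Ighg2c was higher in tumours by 4.02 ± 0.06 under KO and 3.94 ± 0.06 under WT, and Igha by 2.28 ± 0.11 under KO and 6.56 ± 0.09 under WT. Ighg2b was higher in tumours by 2.82 ± 0.07 under KO and 1.97 ± 0.07 under WT, and Ighg3 by 0.84 ± 0.09 under KO and 0.65 ± 0.08 under WT. Ighg1 did not pass under KO (0.11 ± 0.06; edgeR, adjusted p = 0.21) and was lower in tumours under WT, with a log2 change of -2.03 ± 0.06. Ighe, the constant gene of IgE, was at 0 to 1.29 CPM in tumour KO and 7.36 to 9.96 CPM in lymph node KO libraries, and at 0 to 0.320 CPM in tumour WT and 21.5 to 24.9 CPM in lymph node WT libraries, and passed as lower in tumours under both labels. Jchain was higher in tumours by 2.25 ± 0.09 under KO and 3.76 ± 0.10 under WT. Markers of plasma cells, 10 genes with Jchain among them, summed to 1072 to 1235 CPM in tumour KO and 1184 to 1386 CPM in tumour WT libraries, which overlap. The members of that list did not move together in tumours, where Jchain was at 253 to 331 CPM under KO and 671 to 875 CPM under WT. Without Jchain, the sum was higher in every tumour KO library than in any tumour WT library. In lymph nodes the full list summed to 504 to 535 CPM under KO and 453 to 482 CPM under WT. Germinal centre markers, 8 genes, summed to 139 to 153 CPM in tumour KO and 48.0 to 54.4 CPM in tumour WT libraries, and to 240 to 252 CPM in lymph node KO and 210 to 224 CPM in lymph node WT libraries. The 7 markers of B-1 and marginal zone B cells summed to 141 to 165 CPM in tumour KO and 128 to 158 CPM in tumour WT libraries, which overlap. The same 7 genes summed to 204 to 322 CPM in Treg libraries, above every B cell library. Their sum is therefore not a measure of B-1 cells alone, and it cannot be set against the difference in Ighv11-2. The part of cell states in the usage differences was not tested.

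Treg libraries also held Ighv reads, 42247 in all against 216139 in the B cell libraries, and these were included in the floor that chose the segments. They made up 0.0832 to 0.0886% of reads in tumour Tregs labelled KO, against 0.00385 to 0.00455% in those labelled WT, and 0.0113 to 0.0117% in lymph node Tregs labelled KO, against 0.0174 to 0.0194% in those labelled WT. Tumour WT Treg libraries had 393 to 476 Ighv reads each, so their shares are the least precise, and 49 of the 101 segments had 0 reads in all 3. B cell markers summed to 55.6 to 58.5 CPM in tumour KO and 4.31 to 7.78 CPM in tumour WT Treg libraries, and to 281 to 308 CPM in lymph node KO and 60.6 to 64.1 CPM in lymph node WT Treg libraries. The order of the groups in Ighv reads was thus not the order in B cell markers. Plasma cell markers summed to 636 to 652 CPM in tumour KO Treg libraries, the highest of the Treg groups, and to 227 to 306 CPM in the other 3. Single plasma cell genes differed in direction there. Jchain was at 138.3 to 147.8 CPM in tumour KO and 8.98 to 15.37 CPM in tumour WT Treg libraries. Prdm1 was at 42.59 to 45.97 CPM in tumour KO and 59.48 to 64.97 CPM in tumour WT Treg libraries. Every Treg library had more Prdm1 than any B cell library, so the sum is not a measure of plasma cells alone. The part of B cell or plasma cell RNA in the Ighv reads of Tregs was not tested.

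In tumour KO Tregs Ighv11-2 led with 8.62, 9.07 and 8.07% of Ighv reads, ahead of Ighv1-64 (7.15 ± 0.541%) and Ighv1-53 (5.62 ± 0.380%), all of which were among the first 4 in the tumour KO B cells. Profiles of these 2 groups had a Morisita-Horn index of 0.899 to 0.927, above all other pairs of different groups. In lymph node KO Tregs Ighv1-53 led with 13.5, 14.2 and 12.1%, and it led the lymph node KO B cells too, with an index of 0.734 to 0.784 between the groups. In lymph node WT Tregs Ighv9-3 took 42.1, 37.8 and 35.1%, and it led the lymph node WT B cells at 6.72 to 7.65%, while Ighv1-12 followed with 6.59 ± 0.819%. The index between these 2 groups was 0.370 to 0.474, higher than that of lymph node WT Tregs with any other B cell group. Tumour WT Tregs were led by Ighv8-12 with 17.2, 20.6 and 14.5%, a segment at 1.42 to 1.58% in tumour WT B cells, followed by Ighv1-9 (11.2 ± 0.717%) and Ighv1-64 (15.8, 7.63 and 7.52%), where replicate 1 stood apart. Their index was 0.350 to 0.422 with tumour WT B cells and 0.297 to 0.421 with tumour KO B cells, which overlap. The leaders of tumour WT B cells were nearly absent from tumour WT Tregs. Ighv1-82 and Ighv1-72 had 0 reads in all 3 of these Treg libraries, and Ighv1-81 had 2, 0 and 1. The effective number of segments was 46.8 to 47.7 in tumour KO and 18.5 to 22.2 in tumour WT Tregs, and 42.1 to 44.9 in lymph node KO and 14.1 to 17.1 in lymph node WT Tregs, from fewer reads than in B cells.

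**Figure D5:**
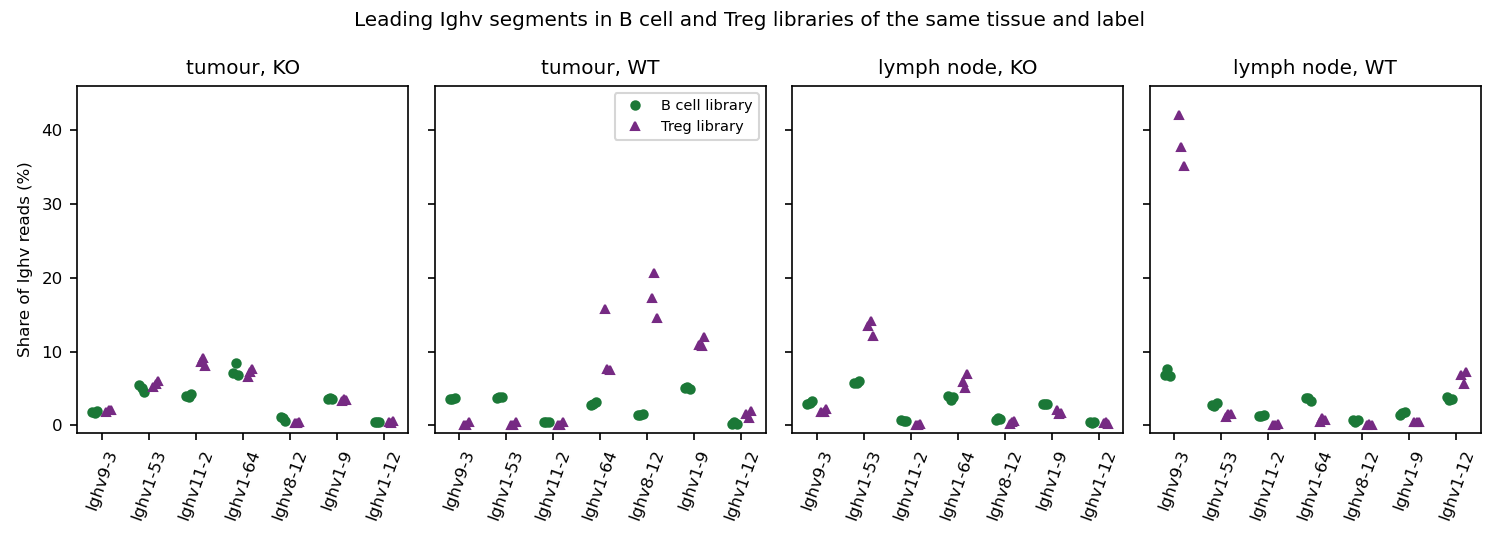
Share of Ighv reads (percent) of 7 segments in B cell libraries (circles) and Treg libraries (triangles) of the same tissue and genotype label, one point per library. The 7 were picked for display by no fixed rule. Ighv1-82, Ighv1-81 and Ighv1-72, the leaders of tumour WT B cells, are not among them and were nearly absent from tumour WT Tregs. Ighv11-2 and Ighv1-64 are high in both cell types in tumour KO, Ighv1-53 in both in lymph node KO and Ighv9-3 in both in lymph node WT, where it reaches 35.1 to 42.1% in Tregs.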

How the data were processed

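The data are raw read counts that the authors deposited as 1 table of 56791 genes by 24 libraries, with each gene's coordinates and exon length in bases and no normalization. Libraries were stranded mRNA preparations from TRIzol RNA, per the labels' protocols. The submitters' processing notes list fastp 0.23.4 (trimming), STAR 2.5.3a (alignment) and featureCounts (counting), and the builds GRCh38 and GRCm39. The table's coordinates lie on mouse chromosomes and are given as GRCm39. Not given in the sources used here are strand setting, annotation release and the treatment of reads with several alignments, and the counts have no molecular identifiers stated. Each column was assigned by its name to 1 labelled sample, with 0 left over.

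Shares, effective numbers and similarities were computed from the deposited counts over all 183 Ighv rows. Tests used edgeR 4.0.16 in R 4.3.3 (TMM, filterByExpr, two-sided quasi-likelihood F test, Benjamini-Hochberg adjustment over all genes tested) on the 6 libraries compared, or on 12 for the interaction. For usage, the offset of Ighv rows was the log of each library's Ighv total and that of other rows the TMM effective library size. Shares of all genes whose ranges did not overlap were taken on the same scale. DESeq2 1.42.0 and other settings were alternatives. Both fits were tested on simulated data. No p-value was computed into the text for scores over segments (effective number, Ighv share), for which values and overlap are given. The named segments were the first 5 of each B cell group, those with 5% or more in a B cell library, the 4 largest passing usage changes per direction and comparison among segments at 1% or more in either group, the rows at the floor, and the constant genes with Jchain. The segments, lists and tests were chosen with earlier results of these data known.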

Additional observations from a re-analysis of the deposited data

Results flagged for a closer look

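The usage difference by genotype label differed between tumour and lymph node B cells, by an interaction test over 12 libraries (edgeR, adjusted p under 0.05 over all genes), for 50 of 101 Ighv segments. Of all genes tested, 20.9% passed the same test, 12.4% with a larger and 8.5% with a smaller ratio in tumours. Among the leading segments the log2 interaction, tumour minus lymph node, was 4.22 for Ighv11-2, 3.96 for Ighv1-12, 1.29 for Ighv1-64 and 1.03 for Ighv4-1. It was -2.37 for Ighv2-9, -1.86 for Ighv1-81, -1.31 for Ighv1-9, -1.29 for Ighv1-82, -0.98 for Ighv5-17 and -0.69 for Ighv1-53. Which cells or clones carried these segments was not measured.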

How the results depend on the processing

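The difference in effective number between tumour B cells labelled KO and WT was -0.00422, smaller than the spread between libraries, and its sign was not stable: it was 0.590 with counts thinned to the smallest Ighv total of 10229 reads, 1.16 with counts divided by exon length, 0.245 over the 101 segments alone, and from -0.344 to 0.514 when each library was left out in turn. For tumour against lymph node under WT it was -6.20, and -5.52 over the 101 segments alone, because rarer rows were then left out. All 280 alternative values of the 32 usage ratios named for the size of their change kept their sign and their call. These 32 were picked as the largest passing changes in the same libraries, so a stable call was likely beforehand and is no separate support. Total counts of segments that passed stayed within 1.5 times of those reported. With a floor of 1000 reads, which leaves 63 segments, lower usage calls were 23 in tumours by label and 22 between tissues under KO, against 37 and 34 with the floor of 100. With each library left out in turn, usage calls ran from 58 to 65 in tumours by label, 32 to 39 in lymph nodes by label, 52 to 61 between tissues under KO, 48 to 57 under WT and 45 to 50 for the interaction. Without both libraries that stood apart they were 64 in tumours by label and 51 for the interaction. Each comparison between tissues holds only 1 of the 2, and without it usage calls were 61 under KO and 57 under WT. These last values are fits already within the leave-one-out ranges and no further check. With a replicate block the usage calls were 64 in tumours and 38 in lymph nodes. For same-numbered libraries the correlation of deviations from the group mean ran from -0.119 to 0.0693. With 3 libraries in a group, this cannot tell whether libraries of the same number share a mouse or a batch. Over all 28 named segments and the 9 genes of the constant list (Jchain included), the block changed 2 of 287 calls: Ighv1-82 between tissues under KO no longer passed in usage (0.28; edgeR, adjusted p = 0.061), and Ighm passed in level in lymph nodes (0.10; edgeR, adjusted p = 0.048). Over all alternatives, 21 of these 287 changed their call at least once and none that passed changed sign. Among those printed above, Ighv1-12 in tumours by label (0.84) no longer passed without WT replicate 1 (0.70) or 3 (0.71), and the level of Ighv1-53 passed without both libraries that stood apart (-0.20). Among the constant genes counted above, Ighd in tumours by label no longer passed without KO replicate 2, nor Jchain and Ighd in lymph nodes by label under several settings. In level, DESeq2 passed 67 segments in tumours by label, 28 in lymph nodes by label, 65 between tissues under KO and 78 under WT. The share of all genes that passed was not taken under these alternative settings. Few reads limit the rarest segments and the shares in tumour WT Tregs.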
